A study of Rattus norvegicus with 24 samples.

Results

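The change in messenger RNA between pachytene spermatocytes, the meiotic cells, and round spermatids, the haploid cells that follow them, was measured in testes of Brown Norway rats aged 18 months. The members were chosen by age: the arrays of 18-month-old animals, 12 of the 24 in the series, with 6 of pachytene spermatocytes (PACH) and 6 of round spermatids (ROU). Both fractions came from enzyme-digested testes of the same strain through a STAPUT gradient, which sorts cells by how fast they settle, and the submitters give a purity above 83%. PACH and ROU arrays share the animal numbers 2, 3, 5, 8, 9 and 10 in their titles, which were read as rat numbers, so that each rat gives 1 difference, ROU minus PACH. The labels name no transgene or treatment. The other 12 arrays, of rats aged 4 months in the same layout, serve for comparison and share the normalisation and the fit.

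In pachytene spermatocytes the homologous chromosomes are held together by the synaptonemal complex while crossovers are made, and the X and Y chromosomes are packed into a silenced body. After the meiotic divisions the round spermatid builds the acrosome and the tail, and makes transcripts for transition proteins and protamines that are stored before they are translated. Both cell types transcribe many genes used in no other tissue, and transcripts made in meiosis can persist into the spermatid.

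Each array was an Affymetrix rat expression array with 31099 probe sets. Deposited array medians were 6.62 to 6.92 (log2) for PACH and 7.67 to 7.86 for ROU, and controls for a sequence absent from rat stood at 4.19 ± 0.07 in PACH and 6.90 ± 0.06 in ROU (SD, n = 6 each). The deposited values are log2 intensities with no centring visible in them, and the direction is not in doubt because each array holds 1 fraction. The level of low signals thus differed between the PACH and ROU arrays, and that difference and the cell type cannot be told apart. One constant was therefore added to the linear PACH values so that 45 control probe sets had the same mean in both, and the 24 arrays were quantile normalised. The controls' mean ROU minus PACH difference was 0.73 ± 0.81 as deposited and 0.09 ± 0.22 afterwards (SD over 45 controls). All levels below are on that normalised log2 scale, on which the absent sequence reads 6.79 and the brightest value is 15.34. The added constant compresses the differences of dim transcripts.

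A difference was called where limma's moderated test, with the rat as a block, gave a Benjamini-Hochberg adjusted p under 0.05 over all probe sets and the difference was at least 2-fold, 1 on the log2 scale. Genes are represented by their brightest probe set. A listed gene counts as measured where a probe set bears its symbol alone, whatever its level. "Measured in both" means a group mean at least 1 above the absent-sequence level in both fractions, and "bright in one" means at least 2 above it in one fraction and under 1 above it in the other.

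Of 31042 probe sets, 4368 (14.1%) were called at 18 months, 2062 (6.64%) higher in ROU and 2306 (7.43%) lower. Fitted alone on the same normalised values, the 12 arrays of 18 months gave the same 2062 and 2306. By the adjusted p alone 23996 (77.3%) differed, so the fold threshold set the counts. With median centring in place of quantile normalisation the split became 1501 higher and 3560 lower, and the median of genes measured in both was -0.28 in place of 0.0013. As deposited, with the low signals untreated, 17228 probe sets were higher and 2147 lower. Among 8224 genes measured in both fractions, 1159 (14.1%) were higher in ROU and 1020 (12.4%) were lower. All 2179 of these genes differed in the same direction in the 6 rats, and in 2178 the PACH and ROU values did not overlap. Over all 14217 genes, called or not, 81.4% had all 6 rats on one side and 73.7% had no overlap. Of these 14217, 10.3% were called higher and 9.4% lower, and the shares of each list below stand beside these. The differences were of like size in each rat: the SD over the 6 rats had a median of 0.09.

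**Figure D1:**
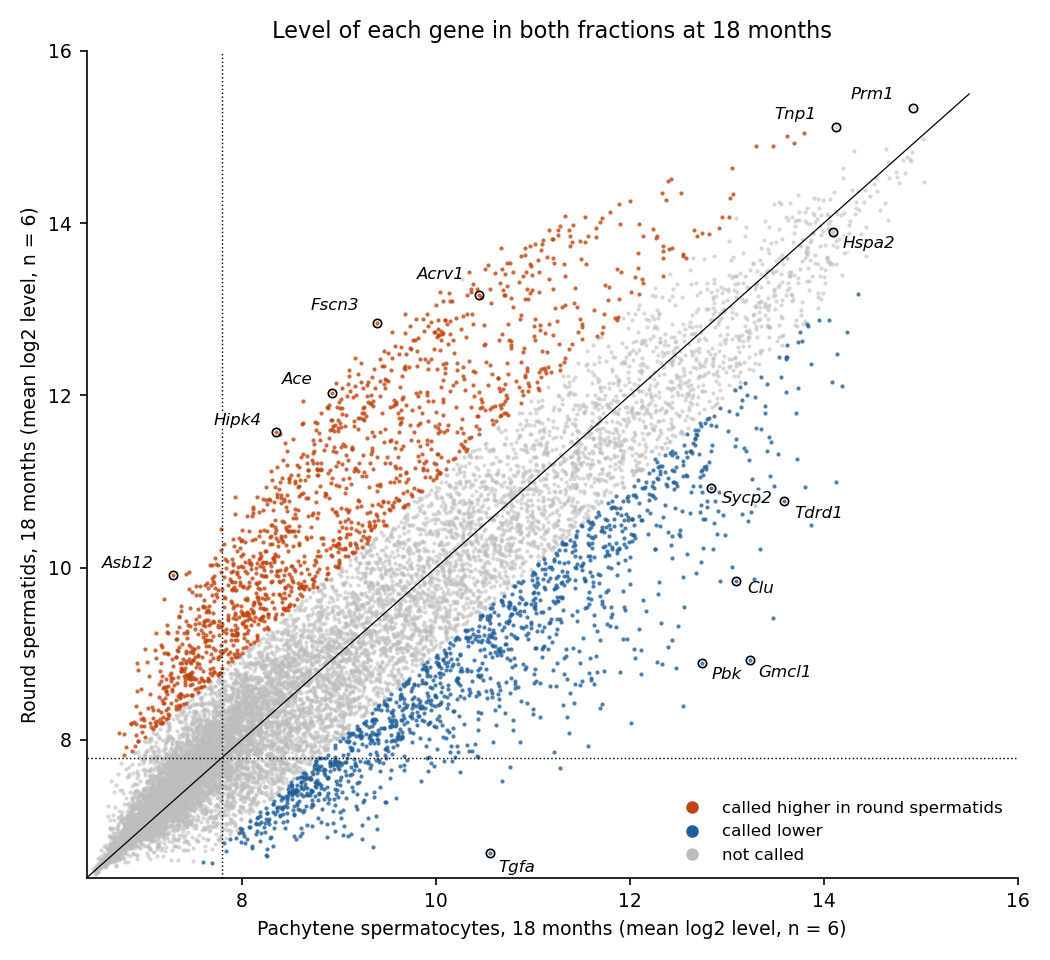
Mean log2 level of each of 14217 genes at 18 months in pachytene spermatocytes (x axis) and round spermatids (y axis), n = 6 rats each, coloured by call. The dotted lines mark the level for "measured in both" (7.79) and the solid line equal levels; called genes lie on both sides, with Gmcl1 and Fscn3 among the farthest measured in both.

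Fraction markers were checked first. Of 10 round spermatid markers 8 were measured, all above the low-signal level in both fractions; 5 were higher in ROU, none was lower, and their median difference was 1.10. Of 10 pachytene markers, all measured, 5 were lower in ROU and 1, Ccna1, was higher, with a median of -0.99. The median over all genes was 0.05. The mean level of the round spermatid markers was 11.85 to 12.17 over the PACH arrays and 13.37 to 13.47 over the ROU arrays, and that of the pachytene markers was 12.39 to 12.48 in PACH and 11.10 to 11.37 in ROU. Each fraction thus had the higher level of its own markers in all 6 rats, and neither was free of the other's. In cell fractions such as these, fewer cells of a type and less RNA per cell cannot be told apart, nor can a transcript carried by the other cell type in the fraction. The PACH array of rat 2 had the highest level of the round spermatid markers, 12.17 against 11.85 to 11.99 in the other rats, and its part in the differences was not tested.

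The promoters of a few called genes are shown for 2 regulators that were themselves called. CREM binds the cAMP response element, and its messenger RNA was higher in ROU, though not called with median centring (0.96). MYBL1 binds the MYB site, and its messenger RNA was lower. The proteins were not measured. The windows cover the 250 bases before the RefSeq start on build GRCr8, read in the direction of the gene. Each shown window was searched on both strands for 1 motif. This was TGACGT (1 arm of the cAMP response element) for spermiogenesis genes and AACTG (the core of the MYB site) for meiosis genes. Capitals mark matches of that motif alone, and the other motif stays in lower case where present, as AACTG does in Acr. Acr (chr7:122517684-122517933, plus strand) and Acrbp (chr4:159537149-159537398, plus strand) are acrosome genes that were higher in ROU, and Sycp2 (chr3:185876493-185876742, minus strand) is a synaptonemal complex gene that was lower. Tnp1 (chr9:82044279-82044528, minus strand), a transition protein gene just short of the 2-fold threshold, was added after its values were seen because its window holds the whole palindrome, in which 2 matches overlap.
Acr: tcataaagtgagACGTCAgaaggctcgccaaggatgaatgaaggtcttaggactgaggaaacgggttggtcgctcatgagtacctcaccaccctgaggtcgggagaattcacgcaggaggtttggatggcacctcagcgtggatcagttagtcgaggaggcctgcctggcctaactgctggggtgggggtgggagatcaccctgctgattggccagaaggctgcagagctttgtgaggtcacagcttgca
Acrbp: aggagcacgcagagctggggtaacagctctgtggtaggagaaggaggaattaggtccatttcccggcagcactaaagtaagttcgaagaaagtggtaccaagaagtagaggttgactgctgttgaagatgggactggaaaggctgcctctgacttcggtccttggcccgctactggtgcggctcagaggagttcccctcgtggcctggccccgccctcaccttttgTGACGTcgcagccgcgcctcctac
Tnp1: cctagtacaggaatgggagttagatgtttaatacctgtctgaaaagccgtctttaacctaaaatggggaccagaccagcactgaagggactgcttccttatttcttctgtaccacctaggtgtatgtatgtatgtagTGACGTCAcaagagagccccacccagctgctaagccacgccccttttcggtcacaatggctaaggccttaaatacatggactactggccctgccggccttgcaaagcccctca
Sycp2: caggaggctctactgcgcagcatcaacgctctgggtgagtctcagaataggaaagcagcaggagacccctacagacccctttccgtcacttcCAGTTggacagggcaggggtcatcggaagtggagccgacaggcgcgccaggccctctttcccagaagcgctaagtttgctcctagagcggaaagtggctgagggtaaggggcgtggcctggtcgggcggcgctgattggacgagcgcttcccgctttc
The match lies 238 bases before the start in Acr, 24 in Acrbp and 158 in Sycp2, counted to its first base, and 111 in Tnp1 for the nearer of 2 overlapping matches. Of 14 core spermiogenesis genes that were higher, 2 held TGACGT, 10 did not and 2 had no promoter in the table. Of 7 core meiosis genes that were lower, 1, Sycp2, held AACTG, 5 did not and 1 had no promoter in the table. Shares over genes count a gene with a promoter in the table if any of its promoters held the motif. Over genes measured in both, TGACGT was held by 13.1% of higher genes, 11.9% of lower genes and 12.2% of genes not called. AACTG was held by 39.5%, 32.7% and 33.7% of the same sets. GTTGCC, 1 arm of the X box bound by RFX factors, was held by 13.3%, 11.4% and 11.4%. Counted per single promoter, a unit not comparable with these, the motifs stood in 6.95%, 40.2% and 9.89% of all 33469 promoters. In the 41 spermiogenesis genes that were higher and had a promoter in the table the shares were 9.76% for TGACGT, 51.2% for AACTG and 19.5% for GTTGCC. In the 21 such meiosis genes that were lower they were 23.8%, 28.6% and 9.52%. These shares were not tested, and a match is a run of letters, not a measured binding site.

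Acrosome and egg-interaction genes were more often higher than lower in spermatids. Of 57 listed genes 29 were measured; 14 (48.3%) were higher in ROU and 1 (3.45%) was lower, against 10.3% and 9.4% of all genes, and the list's median was 0.89 against 0.05. Acrv1, which encodes the acrosomal matrix protein SP-10, had PACH levels of 10.19 to 11.05 with a median of 10.37, and ROU levels of 13.09 to 13.22 with a median of 13.17. The groups were far apart, and rat 2 had the highest PACH level. The difference was 2.71 ± 0.25 (SE), 6.55-fold, with a limma Benjamini-Hochberg adjusted p of 4.2e-07. Spam1, a hyaluronidase of the sperm surface, gave PACH levels of 10.08 to 10.97 and ROU levels of 13.14 to 13.34, a difference of 2.88 ± 0.23. Ace, whose testis form of angiotensin-converting enzyme starts from a promoter of its own inside the gene, ran from 8.75 to 9.33 in PACH and from 11.94 to 12.18 in ROU, a difference of 3.10 ± 0.22. Prss37, a serine protease homolog needed for sperm to reach and bind the egg, differed by 3.09 ± 0.25, and Adam4, a sperm membrane protein of the ADAM family, by 3.05 ± 0.20. In these 5 genes the lowest ROU value lay above the highest PACH value.

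Other acrosome genes differed less. Acr, the gene of the protease acrosin, whose promoter is printed above, was 10.35 to 10.56 in PACH and 12.01 to 12.06 in ROU, a difference of 1.59 ± 0.08. Its binding partner Acrbp differed by 1.17 ± 0.10. Zpbp, a zona pellucida binding protein, had a difference of 0.61 ± 0.05, below the 2-fold threshold, from a PACH mean of 12.68. Adam2, the beta subunit of fertilin, stood at 13.49 ± 0.03 in PACH and 13.21 ± 0.07 in ROU (SD, n = 6), a difference of -0.28 that was not called. The acrosome list therefore holds genes below the 2-fold threshold beside genes that were several-fold higher in ROU.

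Genes that replace histones and pack sperm chromatin were more often higher than lower in ROU. Of 27 listed genes 20 were measured, 7 (35%) were higher, 2 (10%) were lower, and the median was 0.35. Prm2, one of the protamines that finally replace histones, had PACH levels of 10.92 to 11.86 with a median of 11.09 and ROU levels of 13.85 to 14.03 with a median of 13.90. Rats 2 and 10 had the highest PACH levels, and no PACH value came near the ROU values. The difference was 2.66 ± 0.25, 6.32-fold (limma, Benjamini-Hochberg adjusted p = 4.4e-07). Prm3 differed by 2.38 ± 0.21, the linker histone gene Hils1 by 1.59 ± 0.13, the transition protein gene Tnp2 by 1.39 ± 0.12 and Hmgb4, a high mobility group protein of spermatids, by 2.34 ± 0.19.

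Tnp1 and Prm1 did not reach 2-fold. Tnp1 was 13.95 to 14.48 in PACH and 15.10 to 15.17 in ROU, a difference of 0.98 ± 0.10 that passed the threshold without rat 2 or without rat 10. Prm1 was 14.82 to 15.10 in PACH and 15.34 in all 6 ROU arrays. That is the top value of the scale, which quantile normalisation makes the same on each array, so no higher ROU level can be read on it. The part of this limit in the difference of 0.41 was not tested. For 36 genes the ROU mean lay within 1 of that top value. Camk4, a calmodulin-dependent kinase that acts in the exchange of transition proteins for protamines, was higher by 2.67 ± 0.23, and Cdyl, a chromodomain protein, by 2.47 ± 0.24.

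Sperm tail genes ranged from below the threshold to several-fold higher in ROU. Of 75 listed genes 46 were measured, 17 (37%) were higher, 1 (2.17%) was lower, and the median was 0.38 (0.16 with median centring). Fscn3, the testis form of the actin-bundling protein fascin, had the largest difference in favour of ROU of all genes. It was counted on this list, and the place of its protein in the cell was not measured. Its PACH levels were 9.21 to 9.91 with a median of 9.26, and ROU levels 12.65 to 13.07 with a median of 12.79. All 6 rats differed by 3.16 to 3.70 (SD 0.19), and the fit of both ages gave 3.44 ± 0.31 (SE), 10.9-fold (limma, Benjamini-Hochberg adjusted p = 3.1e-07). Akap4 and Akap3, the anchoring proteins of the fibrous sheath around the tail, were higher by 2.29 ± 0.20 and 2.19 ± 0.19. Akap4 lies on the X chromosome and read 11.43 to 12.25 in PACH against 13.87 to 14.03 in ROU. Tekt5, a filament protein inside the microtubule doublets, was higher by 2.83 ± 0.22, and Spag4, a nuclear envelope protein that links to the tail, by 2.79 ± 0.23. The outer dense fibre gene Odf1 differed by 1.24 ± 0.10 and the mitochondrial capsule gene Smcp by 1.41 ± 0.12, from PACH means of 13.80 and 13.48. Odf2, Tekt1 and the dynein chain gene Dnai1 had differences of 0.53, 0.23 and 0.27, none of them called, with PACH means of 14.31, 14.06 and 11.69. Each of 4 genes just named, Fscn3, Akap4, Tekt5 and Spag4, had its highest PACH level in rat 2.

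**Figure D2:**
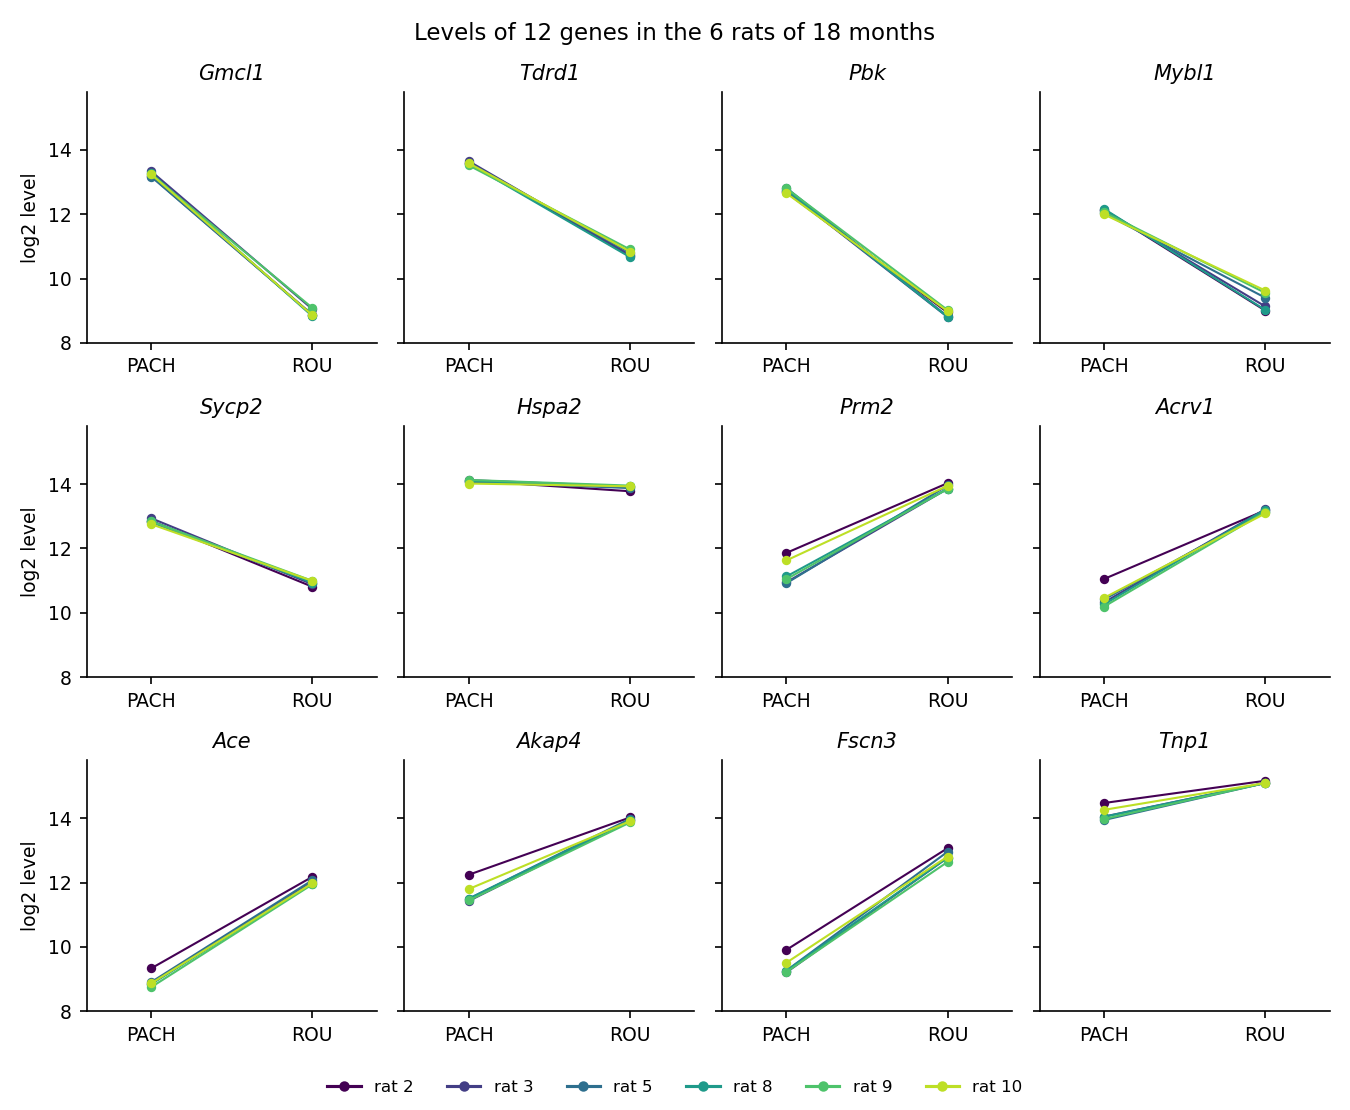
Log2 levels of 12 genes in pachytene spermatocytes (PACH) and round spermatids (ROU) of the 6 rats of 18 months, 1 line per rat. The lines of a gene run nearly parallel, Hspa2 and Tnp1 are nearly flat beside Gmcl1 and Fscn3, and rat 2 lies highest in PACH for Prm2, Acrv1, Ace, Akap4, Fscn3 and Tnp1.

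Signalling and ion transport genes of sperm were higher or not called. Of 40 listed genes 22 were measured, 10 (45.5%) were higher, none was lower, and the median was 0.74 (0.40 with median centring). Hipk4, a kinase needed to shape the spermatid head, was 8.24 to 8.60 in PACH and 11.54 to 11.62 in ROU. The groups were well apart in every rat, with differences of 3.01 to 3.34 and a fitted value of 3.23 ± 0.19. Atp1a4, the sodium pump isoform of sperm, was higher by 2.96 ± 0.23. Prkar2a, a regulatory subunit of protein kinase A, was higher by 2.95 ± 0.25, and Adcy10, the bicarbonate-sensitive adenylyl cyclase, by 1.86 ± 0.15. The catalytic subunit gene Prkaca had a difference of 0.42 that was not called and that changed sign with median centring (-0.07). Catsper2, of the sperm calcium channel, had a difference of 0.77 ± 0.05, below 2-fold, and Ppp1cc, the phosphatase with a sperm-specific form, one of -0.22 from a PACH mean of 14.75.

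Regulators of transcription changed in both directions. Of 17 measured genes of a list of 30, 8 (47.1%) were higher and 4 (23.5%) lower. Mybl1, the MYB factor that drives the pachytene programme, was 11.99 to 12.16 in PACH and 9.0 to 9.63 in ROU, a difference of -2.80 ± 0.12. Its 6 rats varied more than those of most genes, from -3.14 to -2.37. Crem, the activator of the haploid programme, was higher by 1.04 ± 0.08, just over 2-fold, and was not called with median centring. Rfx1, which binds the X box, was higher by 2.61 ± 0.20, while its relative Rfx2 was near level at 0.13 (PACH mean 12.68). Sox6, an HMG-box factor, was higher by 2.24 ± 0.17, although another of its probe sets was called lower. Taf7l, an X-linked subunit of the general transcription factor TFIID, was higher by 2.04 ± 0.11. Tcfl5 and Tbpl1, with PACH means of 14.21 and 14.01, had differences of -0.56 and -0.27, which were not called.

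Synaptonemal complex and cohesin genes did not move as a block. Of 22 listed genes 12 were measured; 2 were lower, 3 were higher, and the median was 0.01, which became -0.21 with median centring. Sycp2, of the axial element, was 12.75 to 12.94 in PACH and 10.81 to 10.99 in ROU, a difference of -1.92 ± 0.08 (limma, Benjamini-Hochberg adjusted p = 3.3e-10). Sycp3, its partner in the axis, had a difference of -1.09 ± 0.07 and a ROU mean of 12.87. Sycp1, of the transverse filaments, had a difference of -0.78 ± 0.11, below 2-fold, and Stag3, the meiotic cohesin subunit, one of -0.33. Against the list's name, Syce3, of the central element, was higher by 1.67 ± 0.11 and the core cohesin gene Smc3, used in mitosis too, by 1.56 ± 0.16.

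Genes of recombination and break repair were more often lower: 6 of 23 measured (26.1%) were lower and 2 (8.7%) higher, of a list of 40, with a median of -0.48 (-0.86 with median centring). The shares over all genes were 9.4% and 10.3%, so the higher share was near that of all genes. Mlh3, of the crossover endonuclease, was 9.33 to 9.66 in PACH and 7.79 to 8.0 in ROU, a difference of -1.57 ± 0.08. H2ax, the histone variant marked at breaks and on the silenced sex body, was lower, with a difference of -1.36 ± 0.10, and the exonuclease gene Exo1, bright in PACH alone, had one of -2.02 ± 0.09. Spo11, which makes the breaks, had a difference of -0.94 ± 0.06, below the threshold. Tex15, known from meiotic recombination and from silencing of transposons, was higher in ROU at 2.55 ± 0.16, and so was Mre11, of the break-sensing complex, at 1.38 ± 0.08.

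The division machinery held large differences in both directions. Of 58 listed genes 51 were measured, 11 (21.6%) were lower and 6 (11.8%) higher, with a median of -0.22. Pbk, a mitotic kinase, was 12.65 to 12.82 in PACH and 8.80 to 9.02 in ROU. The rats gave differences of -3.99 to -3.67, and the fitted value was -3.84 ± 0.10, a 14.3-fold lower level in ROU (limma, Benjamini-Hochberg adjusted p = 9.1e-12). Ccne2, a cyclin E, had a difference of -3.64 ± 0.10, Cks2, the small partner of cyclin-dependent kinases needed in male meiosis, one of -3.38 ± 0.13, and Aurkc, the meiotic Aurora kinase, one of -2.16 ± 0.12. In the other direction Ccnb1, the cyclin of the division itself, was 11.10 to 11.42 in PACH and 12.87 to 13.18 in ROU, higher by 1.72 ± 0.12. Ccna1, the cyclin needed to enter the divisions, was higher by 1.15 ± 0.08 and the polo-like kinase gene Plk1 by 1.24 ± 0.07, the latter not called with median centring. Cdk1 (-0.69), Aurka (-0.49), Pttg1 (-0.90) and Ccnb2 (0.25) were not called. Hspa2, a chaperone needed by pachytene cells, stood at 14.09 ± 0.04 in PACH and 13.90 ± 0.06 in ROU (SD, n = 6), a difference of -0.19.

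The piRNA and germ granule genes had the lowest median of the germ cell lists. Of 24 listed genes 10 were measured, 5 (50%) were lower, none was higher, and the median was -1.18. Tdrd1, a tudor scaffold of the germ granule, was 13.52 to 13.65 in PACH and 10.67 to 10.91 in ROU, a difference of -2.81 ± 0.08, 7.03-fold (limma, Benjamini-Hochberg adjusted p = 1.4e-11). Piwil2, a PIWI protein that carries piRNAs, had a difference of -2.09 ± 0.14. Prmt5, which methylates PIWI proteins so that tudor proteins can bind them, had one of -2.47 ± 0.11, and its cofactor Wdr77 one of -1.54 ± 0.13. Tdrd12 was lower as well (-1.46 ± 0.10), while the helicase gene Mov10l1 read 8.87 in PACH and 8.96 in ROU, with overlapping groups.

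Among genes of stored messenger RNA and translational control, 8 of 24 measured (33.3%) were lower and 3 (12.5%) higher, with a median of -0.42 (-0.27 with the mean over the probe sets of a gene). Paip1, which binds the poly(A)-binding protein, had a difference of -2.44 ± 0.12. Cstf2t, an autosomal copy of an X-linked polyadenylation gene, had one of -2.20 ± 0.08, and Elavl1, which binds AU-rich elements, one of -2.05 ± 0.12. Strbp, a double-stranded RNA binding protein of spermatids, was lower too (-1.36 ± 0.06). Ybx2, the germ cell Y-box protein that coats stored messages, stood at 12.68 and 12.41, a difference of -0.26 that was not called.

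Outside these lists, Gmcl1 had the largest difference of all genes. Gmcl1, the germ cell-less homolog of the nuclear envelope, was 13.17 to 13.34 in PACH with a median of 13.24 and 8.83 to 9.09 in ROU with a median of 8.87. The difference was -4.31 ± 0.11, a 19.9-fold lower level in ROU (limma, Benjamini-Hochberg adjusted p = 7.3e-12). B3galnt1, a glycosyltransferase of glycolipids, had a difference of -4.15 ± 0.15, and Sprtn, a protease that clears proteins crosslinked to DNA, one of -4.06 ± 0.10. Phf2, a histone demethylase, had one of -3.81 ± 0.22. Tbl2 (-3.64), Myef2 (-3.45), Arl6ip1 (-3.40), which shapes the endoplasmic reticulum, Spcs3 (-3.38), of the signal peptidase, and Spidr (-3.37), a scaffold of recombination repair, complete the 12 largest with Pbk, Ccne2 and Cks2. In the other direction Fscn3 was followed by Slc6a6, the taurine transporter, at 8.37 to 8.92 in PACH and 11.85 to 12.02 in ROU (3.30 ± 0.22). Fbxo39 (3.27), an F-box protein, Ica1 (3.27), which binds curved membranes, Akap1 (3.20), which anchors protein kinase A on mitochondria, and Tex46 (3.19) came next. Prkcq (3.17), a protein kinase C, Pmfbp1 (3.16), needed to join the sperm head to its tail, and Pwwp2b (3.14) were of like size, with Hipk4, Nup62cl and Dnaja4 described elsewhere. The 12 largest lower differences ran from 10.3-fold to 19.9-fold and the 12 largest higher ones from 8.72-fold to 10.9-fold.

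Some genes were bright in one fraction and near the absent-sequence level in the other, and these had to differ by the way they were picked, so their values are a description. In PACH alone, Tgfa, a growth factor of the EGF family, read 10.35 to 10.80, against 6.67 to 6.71 in ROU. Hace1, a ubiquitin ligase, read 11.28 and 7.68, and Slbp, which binds the stem-loop of histone messages, 10.68 and 7.52. Nsmce3, of the SMC5/6 complex, Chac2, which degrades glutathione, and C4h2orf68 completed the largest 6. In ROU alone, the largest were Zfp385b (7.78 in PACH and 10.45 in ROU), the X-linked Asb12 (7.29 and 9.92), Lsp1, Slc66a2, the granzyme gene Gzmn and the homeobox gene Pknox2. No fold is given for them because the lower value lies near the floor.

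**Figure D3:**
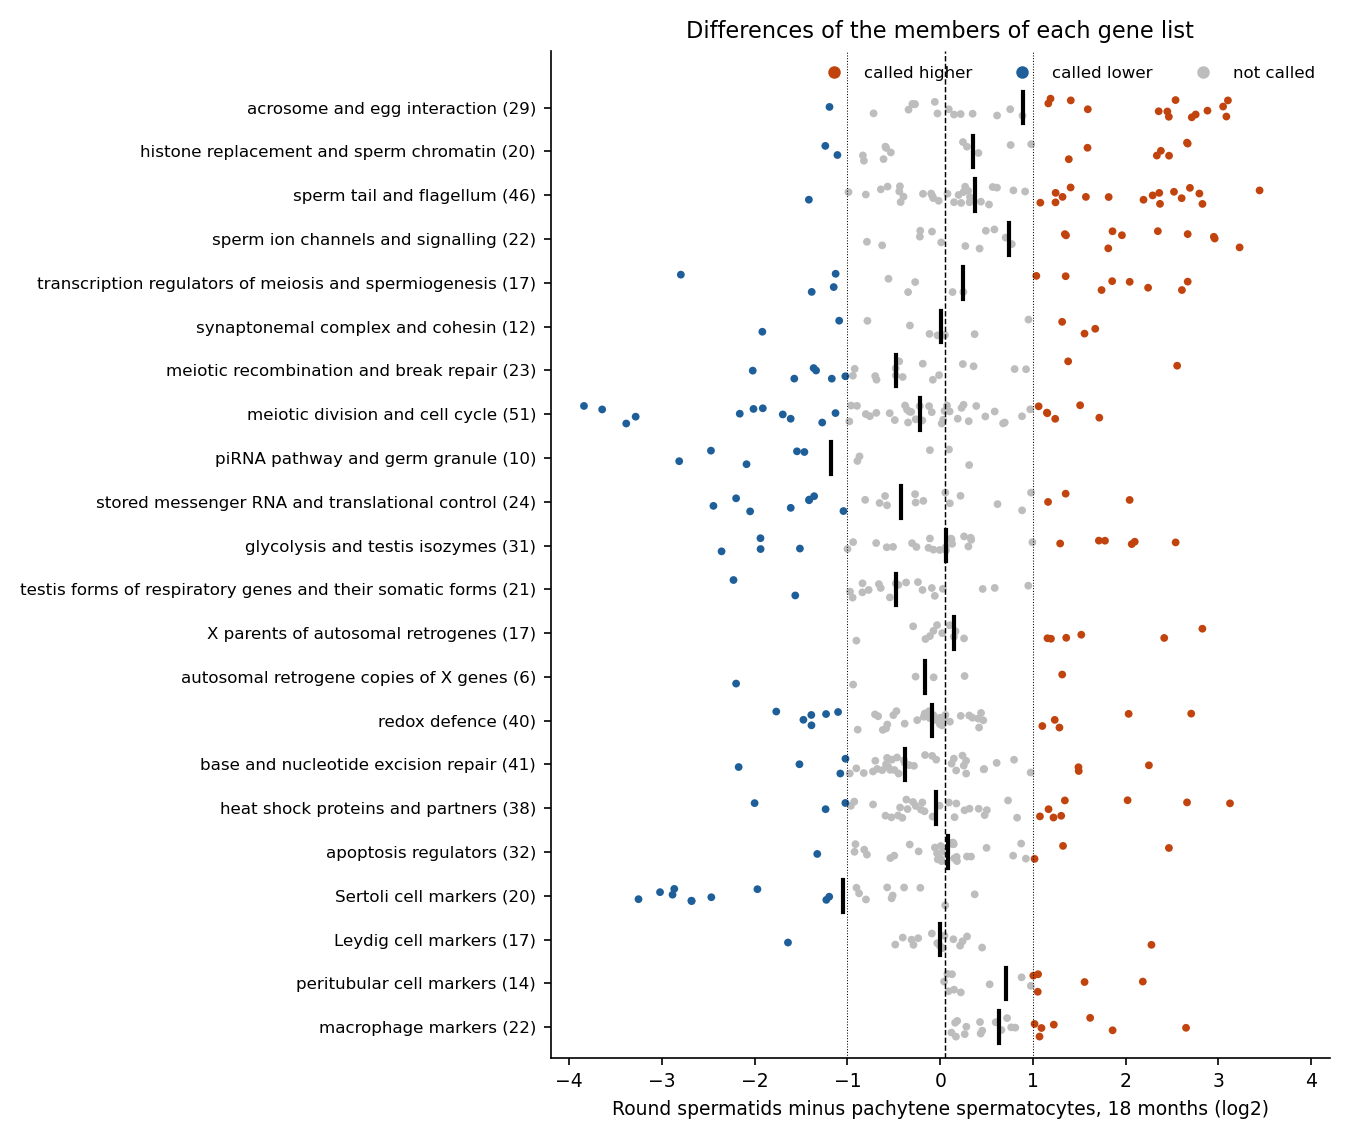
Log2 difference, round spermatids minus pachytene spermatocytes at 18 months, of each measured member of 22 gene lists (points, coloured by call; members in brackets), with the median of each list as a bar. The dashed line is the median of all genes (0.05) and the dotted lines are 2-fold; the acrosome, signalling and piRNA lists lie farthest from the dashed line among germ cell lists.

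Energy genes were called in both directions. Of 31 measured glycolysis genes 6 (19.4%) were higher and 4 (12.9%) lower, with a median of 0.06 (0.03 with median centring). Gapdhs, the sperm form of glyceraldehyde phosphate dehydrogenase, was 12.20 to 12.91 in PACH and 14.43 to 14.59 in ROU, higher by 2.10 ± 0.16. Slc16a7, a lactate and pyruvate transporter, was higher by 2.54 ± 0.25, Gpi, a glycolytic isomerase, by 2.07 ± 0.16, and Hk1, a hexokinase with a spermatid form, by 1.29 ± 0.07. Ldhb, the somatic lactate dehydrogenase subunit, was lower (-1.94 ± 0.11), and so was Pdhb, of pyruvate dehydrogenase (-2.36 ± 0.05). The testis subunit gene Ldhc stood at 14.78 in PACH and 14.47 in ROU and was not called, and Ldha had overlapping groups at 13.54 and 13.60. Among 21 measured respiratory genes with testis forms, none was higher and 2 (9.52%) were lower, against 10.3% and 9.4% of all genes. The share lower was thus that of all genes, and the list's median was -0.48 (-0.79 with median centring). The 2 were Atp5mc3, a ring subunit of ATP synthase, at -2.23 ± 0.05, and Sdha, of complex II, at -1.56 ± 0.08. The testis cytochrome oxidase subunit Cox6b2 was level, at 14.05 and 14.08.

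The X chromosome differed from the autosomes in the direction of its calls. Of 120 X-linked genes measured in both, 55 (45.8%) were higher in ROU and 4 (3.33%) lower, with a median difference of 0.66, which was 0.39 with median centring. Over the 20 autosomes the share higher was 8.95% to 17.4%, the share lower 9.69% to 16.5% and the median -0.09 to 0.15. Across the other fits of the 18-month contrast that kept the fold threshold and all genes measured in both, 45 to 67 X-linked genes were higher. Of all 445 X-linked genes, 235 (52.8%) were dim in both fractions, against 20.3% to 35% on autosomes, 18 were bright in ROU alone and 2 in PACH alone. All genes were read on the same 12 arrays, so these shares are a description over genes, with no test.

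**Figure D4:**
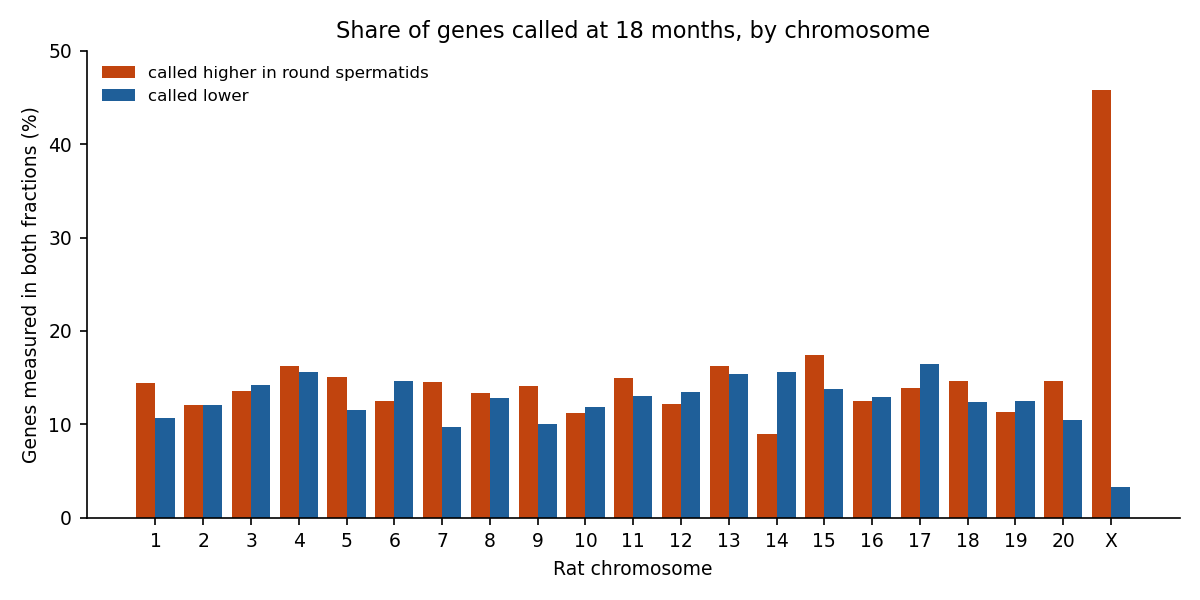
Share of genes measured in both fractions that were called higher (orange) or lower (blue) in round spermatids at 18 months, by rat chromosome. The X chromosome has 45.8% higher and 3.33% lower, and every autosome lies between 8.95% and 17.4% for each bar.

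Nup62cl, a relative of a nuclear pore protein, had the largest X-linked difference, with PACH levels of 8.17 to 8.83 and ROU levels of 11.47 to 11.63, a difference of 3.16 ± 0.20. H2ap, a histone fold gene, was higher by 3.00 ± 0.21, Psmd10, a proteasome assembly factor, by 2.96 ± 0.22 and Ribc1, a tail protein, by 2.91 ± 0.22. Sh3kbp1, an endocytic adaptor, was higher by 2.84 ± 0.19 and Ube2a, a ubiquitin-conjugating enzyme, by 2.83 ± 0.20. The 4 X-linked genes that were lower were Igsf1 (-2.29 ± 0.12), an immunoglobulin superfamily protein, Gpc4 (-2.14 ± 0.15), a cell surface proteoglycan, Rbm3 (-1.71 ± 0.20), a cold-induced RNA-binding protein, and Maged1 (-1.28 ± 0.15). In all 4 the PACH and ROU values did not overlap. The Sertoli markers described below were lower in ROU as well, and their part in these values was not tested.

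Several X-linked housekeeping genes have autosomal copies or relatives, many made by retrotransposition, that are used in the testis. Of 17 measured X parents 6 (35.3%) were higher in ROU and none was lower, and 5 were dim in both fractions. Over all X-linked genes 18.9% were higher, 3.37% were lower and 52.8% were dim in both. Of the 11 X parents measured in both, 6 were higher, beside 45.8% of all X-linked genes measured in both. These counts were not tested against each other. Ube2a, with the retained autosomal relative Ube2b, was 9.0 to 9.77 in PACH and 12.05 to 12.18 in ROU. Utp14a, of ribosome assembly, was higher by 2.42 ± 0.13 and Timm17b, of mitochondrial protein import, by 1.52 ± 0.09. Pgk1 stood near 8.83 in PACH and 8.71 in ROU with overlapping groups, and Pdha1, Rbmx and Cetn2 were dim in both. Of 6 measured autosomal copies or relatives, Cstf2t was lower and Ube2b, the relative of Ube2a, higher (1.32 ± 0.11, with another probe set called lower). Pdha2 stood at 12.41 in PACH and 11.47 in ROU, a difference of -0.94 that was not called.

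The lists of cell maintenance had medians near that of all genes or below it. Of 40 measured redox genes 5 (12.5%) were higher and 6 (15%) lower, against 10.3% and 9.4% of all genes, with a median of -0.09 (-0.28 with median centring). Prdx4, an X-linked peroxiredoxin of the secretory pathway, was 9.92 to 10.65 in PACH and 12.67 to 13.07 in ROU, higher by 2.71 ± 0.21, and the superoxide dismutase gene Sod1 was higher by 2.03 ± 0.14. Lower were Msrb2, a methionine sulfoxide reductase (-1.77 ± 0.10), and the glutathione transferases Mgst1 (-1.47 ± 0.12) and Gsta4 (-1.39 ± 0.13). Gpx4, the peroxidase of the sperm midpiece, stood at 14.64 in PACH with a difference of 0.22 that was not called, and Cat, catalase, had overlapping groups at 8.04 and 7.87.

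Of 41 measured excision repair genes 3 (7.32%) were higher and 4 (9.76%) lower, near the 10.3% and 9.4% of all genes. The median was -0.38 (-0.70 with median centring and -0.20 with the mean over the probe sets of a gene). Aptx, which trims DNA ends, was 9.03 to 9.34 in PACH and 11.16 to 11.54 in ROU, higher by 2.25 ± 0.17. The repair scaffold gene Xrcc1 was higher by 1.49 ± 0.08 and the endonuclease gene Apex1 by 1.49 ± 0.14. Lower were Parp2 (-2.17 ± 0.11) and Parp1 (-1.08 ± 0.09), which sense breaks, Ddb1 (-1.52 ± 0.06), of the damage-binding complex, and Ercc1 (-1.02 ± 0.12), an excision nuclease. The glycosylase gene Ogg1 (-0.72), Xpa (-0.58) and the polymerase gene Polb (0.80) were below 2-fold.

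Of 38 measured heat shock genes and partners 8 (21.1%) were higher and 3 (7.89%) lower, with a median of -0.04 (-0.14 with median centring). Dnaja4, a cochaperone, was 8.94 to 9.52 in PACH and 12.04 to 12.59 in ROU, higher by 3.12 ± 0.30. Bag3, a partner of HSP70, was higher by 2.66 ± 0.23 and the heat shock factor gene Hsf2 by 2.02 ± 0.15, while Hspa4l, a nucleotide exchange factor of germ cells, was lower (-2.0 ± 0.12). Of 32 measured apoptosis regulators 13 were dim in both. Of the 32, 3 (9.38%) were higher and 1 (3.12%) lower, against 10.3% and 9.4% of all genes. Bcl2l14 was higher by 2.47 ± 0.22 and Casp1 by 1.32 ± 0.10, the death promoter Bad was lower (-1.33 ± 0.08), and the survival gene Bcl2l1 had a difference of 0.92 ± 0.04, just below 2-fold. Bcl2 itself was called at 1.02 from a PACH level under the level for "measured in both", and lost the call with a larger added constant.

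Markers of other testis cells did not all move with the fractions. Of 20 measured Sertoli cell markers 10 (50%) were lower in ROU and none was higher, and their mean level was 9.51 to 9.82 over the PACH arrays and 8.09 to 8.47 over the ROU arrays. Clu, the secreted clusterin, was 12.82 to 13.34 in PACH and 9.46 to 10.47 in ROU, a difference of -3.25 ± 0.14. Aard (-3.02), Cst12 (-2.89), the tight junction gene Cldn11 (-2.87), Serpina5 (-2.68) and the protease gene Ctsl (-2.68) lay close behind, and the Sertoli factor Wt1 was lower too (-1.23 ± 0.11). Amh, a marker of immature Sertoli cells, was dim in both. Of 14 peritubular markers 5 (35.7%) and of 22 macrophage markers 7 (31.8%) were higher in ROU, and none was lower; only 3 and 6 of them, respectively, were measured in both fractions. The macrophage list had a mean level of 7.74 to 7.80 over PACH arrays and 8.38 to 8.89 over ROU arrays. Of its 5 defining members, Ptprc (6.92 and 7.09), Csf1r and Cd68 stayed below the level for "measured in both" in each fraction. Cd163, at 7.15 and 7.87, was not called, and C1qa was higher in all 6 rats, at 7.61 and 8.62, but not called without rat 2, 3 or 5. The other 6 higher members were Aif1 (10.66 and 13.31), Lyn, Ctss (7.77 and 9.38), Lyz2, Cd74 and C1qc. The peritubular list had 7.72 to 7.81 and 8.33 to 8.71, and its 3 members measured in both had a median difference of 0.15. Of its members, Acta2 (8.81 to 9.03 in PACH and 8.93 to 9.15 in ROU) and Cnn1 had overlapping groups. Myh11 was higher, at 8.97 to 9.20 in PACH and 10.52 to 10.72 in ROU. The 17 measured genes of the Leydig list had 1 higher (Klf4) and 1 lower (Ptgds), 5.88% each. Its members Star, Cyp11a1, Cyp17a1, Lhcgr and Insl3 were not called, and its median was -0.004. The 18 spermatogonia markers had 1 higher (Gfra1) and 1 lower (Id4), 5.56% each. Of 11 measured endothelial and blood cell markers 2 (18.2%) were higher and none was lower, with a median of -0.008. The part of these cells in the differences of other genes was not tested.

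Where a gene had more than 1 called probe set, they mostly went one way. Of 1677 genes with more than 1 probe set measured in both, 238 had more than 1 called. Of these 238, 34 (14.3%) had probe sets called in opposite directions. One probe set of Ppp1r2, a phosphatase inhibitor, was higher by 1.81 ± 0.13 and another had a difference of -2.20 ± 0.08. Cadm1, a cell adhesion protein, had differences of 1.90 ± 0.13 and -1.77 ± 0.10, and Eif4h, a translation initiation factor, of 2.45 ± 0.17 and -1.70 ± 0.08. Ltn1, a ubiquitin ligase of stalled ribosomes, had 2.69 ± 0.19 and -1.64 ± 0.08, Fam107b 1.90 ± 0.13 and -1.51 ± 0.10, and Zng1a 1.5 ± 0.09 and -2.16 ± 0.07. Each pair kept its directions at 4 months. The files do not pair these probe sets with transcript isoforms, so a value for such a gene belongs to the probe set.

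The same contrast at 4 months rests on other rats and shares no array with that at 18 months. Of 31042 probe sets 4851 (15.6%) were called at 4 months. Among 7990 genes measured in both fractions at both ages, 2153 were called at 18 months; 1875 of them (87.1%) were called in the same direction at 4 months and 0 in the opposite one. Across these genes, which are not independent replicates, the contrasts had a Pearson r of 0.95 and a Spearman rho of 0.96. Without young rats 1, 10 and 11, whose PACH arrays stood apart, 2074 of the 2153 (96.3%) were called at both ages and r was 0.98. The difference between the contrasts was called for 85 probe sets (0.274%), 83 (0.267%) higher at 18 months and 2 (0.00644%) lower, or 76 (0.535%) and 1 (0.00703%) of the 14217 genes. Without rat 5 of 18 months 17 probe sets were called higher, without rat 8 19, without rat 3 29 and without rat 9 43. Without the 3 young rats it was called for 10 and 1 probe sets, and 8 of the 76 genes kept the call, although all 76 kept the direction, with a median of 0.48 in place of 1.12.

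At 4 months 10.9% of all 14217 genes were called higher in ROU and 10.6% lower, against 10.3% and 9.4% at 18 months. Higher in ROU were 14 of 29 acrosome genes at 18 months and 13 at 4 months, 17 and 13 of 46 tail genes, 7 and 5 of 20 chromatin genes, and 10 and 11 of 22 signalling genes. Lower in ROU were 5 and 7 of 10 piRNA genes, 11 and 13 of 51 division genes, 2 and 7 of 21 respiratory genes and 10 and 14 of 20 Sertoli markers. The median of X-linked genes measured in both at 18 months was 0.66 at that age and 0.50 at 4 months. These counts were not tested against each other, and a gene near 2-fold can be counted at one age and missed at the other.

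With all rats, the PACH level of all 76 genes was lower at 18 than at 4 months, with a median of -1.26, while the ROU level had a median of -0.15. Without young rats 1, 10 and 11 these medians were -0.62 and -0.12. Of the 76, 53 were called higher in ROU at both ages, so for these the call with all rats concerned the size of the step. Those genes included Spam1, with a contrast of 2.88 at 18 and 1.56 at 4 months, Acrv1 with 2.71 and 1.49, and Slc16a7 with 2.54 and 1.02. Their differences between ages were 1.32 ± 0.33, 1.23 and 1.51 ± 0.36 with all rats (limma, Benjamini-Hochberg adjusted p = 0.025, 0.043 and 0.021), and 0.61, 0.44 and 0.75 without young rats 1, 10 and 11, none called. Spam1 also lost the call without rat 3, 5, 8 or 9 of 18 months, and Slc16a7 without rat 8. The round spermatid markers had a mean level of 12.93, 12.39 and 12.70 on the PACH arrays of those 3 rats, 11.98 to 12.16 on the other 3 of that age and 11.85 to 12.17 at 18 months, and the part of that level in the difference was not tested.

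Vim, Mgst1 and Rbm3 were lower in ROU at 4 months by a larger step than at 18 months. Vim, vimentin of somatic cells, had a contrast of -1.85 at 4 months and of -0.52 ± 0.15 at 18 months, where it was not called and the groups overlapped (9.48 to 10.03 in PACH, 8.84 to 9.71 in ROU). The difference between ages was 1.32, and 1.23 without the 3 young rats, called both ways. Mgst1 had 1.12 and 1.09, called both ways, and Rbm3 1.14 and 1.17, the latter with an adjusted p of 0.050 by limma and not called. The Sertoli markers had a mean PACH level of 10.23 to 10.92 at 4 months and 9.51 to 9.82 at 18 months. Their level was lower at 18 months in ROU as well, with group means of 8.70 at 4 months and 8.25 at 18 months. The group means in PACH were 10.47 and 9.68. The part of the Sertoli markers in the values of Vim, Mgst1 and Rbm3 was not tested. Morf4l2, an X-linked chromatin gene, and Lratd1 had differences of 1.32 and 1.32 with all rats and of 0.91 and 0.82 without the 3 young rats. Asap3, the 1 gene called lower, had -1.07 and then -0.31, and was not called without any one rat of 18 months, as deposited or with median centring.

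**Figure D5:**
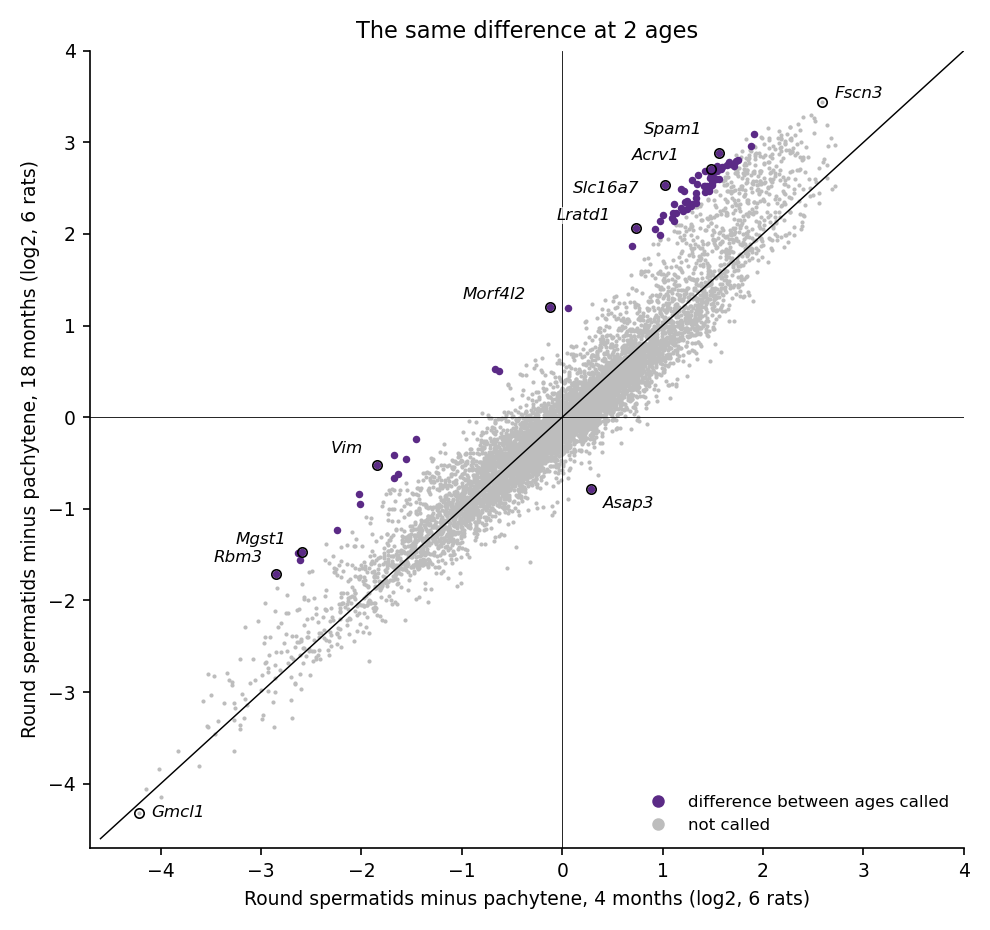
Contrast, round spermatids minus pachytene spermatocytes (log2), at 4 months (x axis) and 18 months (y axis) of genes measured in both at 18 months, 6 rats at each age; purple points were called for the difference between ages. Most points lie near the line of equal contrasts, and the purple points lie above it except Asap3.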

How the data were processed

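The deposited values are log2 expression values per probe set of Affymetrix rat arrays, from biotin-labelled RNA per the labels' protocols. The program behind them and its normalisation are not given in the sources used here. The number of arrays (6 per group) limits the precision. Arrays were grouped by the age and cell type in the labels and paired by the number in their titles; the labels do not say that equal numbers mark 1 rat, and p-values measure the spread between these arrays. The members and gene lists were chosen with earlier results of these data known.

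A constant of 84.5 was added to the linear PACH values so that 45 control probe sets had equal means in both fractions, and the 24 arrays were quantile normalised. limma 3.58.1 in R 4.3.3 fitted all 24 arrays with the rat as a fixed block, two-sided, for 31042 probe sets, leaving out 57 controls; the contrast at each age and their difference were called at a Benjamini-Hochberg adjusted p under 0.05 and at least 2-fold. The fit was checked on simulated data. A single symbol was given for 20826 probe sets, several for 436 and none for 9780 through the platform table, updated to RefSeq names of GRCr8 (14167 of 14217 gene identifiers found). The brightest probe set stands for a gene.

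Named were the 12 largest called differences in each direction among genes measured in both and moved the same way in all rats, the 6 largest among those bright in one, the core members of each list, up to 3 further called members of a list, the 6 largest differences between ages in each direction, 6 genes with opposite probe sets and up to 6 X-linked genes in each direction. Symbols starting with LOC, RGD, MGC or ENSRNOG were counted and not named. Promoters shown are those of up to 3 called core spermiogenesis or meiosis genes per motif that hold it, with Tnp1 added after its values were seen. Alternatives covered the offset, normalisation, block, thresholds, low-signal filters, probe set choice and each rat left out.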

Additional observations from a re-analysis of the deposited data

Results flagged for a closer look

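In 17 of the 231 named values one rat lay apart from the other 5 in its ROU minus PACH difference at 18 months, by a gap above Dixon's 95% critical share of the range; chance gives about 1 in 20. Rat 2 was the one apart in 7 of them. Its difference was the smallest of the 6 rats for Ribc1 (2.46), Ace (2.85), Odf1 (0.86), Tekt2 (1.23) and Smcp (1.005), and its PACH array had the highest level of the round spermatid markers. Rat 2 was also apart for Cox6b2 (-0.033) and, on the high side, Timm17b (1.77). Rat 9 had the smallest size of difference for Ccne2 (-3.25), Sycp1 (-0.68), Paip1 (-2.08) and Pdhb (-2.17) and the largest for Xpa (-0.68). Rat 10 was apart for Rbmx (0.33), Ptprc (0.40) and the lower probe set of Cadm1 (-2.08), rat 3 for Mlh3 (-1.76) and rat 5 for Bcl2 (0.90). Leaving out any one rat turned the direction of no value that was called with or without that rat. Changes of sign among values not called either way were not counted.

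For 15 named genes the contrast at 18 months differed from that at 4 months by the test of the difference itself (limma, Benjamini-Hochberg adjusted p under 0.05 and 2-fold). The difference was 1.51 for Slc16a7, 1.32 for Lratd1, 1.32 for Vim, 1.32 for Morf4l2, 1.32 for Spam1, 1.30 for Shcbp1 and -1.07 for Asap3. It was 1.14 for Rbm3, 1.23 for Acrv1, 1.17 for Prss37, 1.002 for Hmgb4, 1.06 for Spag4, 1.08 for Atp1a4, 1.12 for Mgst1 and 1.03 for Klf4. Without young rats 1, 10 and 11, Vim (1.23) and Mgst1 (1.09) were still called. The values of the other 13 then lay between -0.31 (Asap3) and 1.17 (Rbm3), none called.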

How the results depend on the processing

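Settings chosen after seeing the data were the fit without young rats 1, 10 and 11, the 12 arrays of 18 months fitted alone, and the counts of X-linked genes. The reported counts were 2062 higher and 2306 lower probe sets at 18 months, 83 and 2 for the difference between ages, and 55 and 4 X-linked genes measured in both. Leaving out each rat of 18 months in turn gave 2044 to 2097 higher, 2294 to 2337 lower, 17 to 96 and 0 to 2 for the difference between ages, 55 X-linked genes higher in each case and 4 to 6 lower. Without rat 5 the difference between ages gave 17 and 0, without rat 8 19 and 1, without rat 3 29 and 1, without rat 9 43 and 1, without rat 10 59 and without rat 2 96 and 1. Without young rats 1, 10 and 11 it gave 10 and 1. The deposited values gave 17228 higher, and 2152 and 4 between ages, and the differences of Hspa1l (2.36), Bak1 (1.30), Pecam1 (2.17) and Kit (1.47), all dim in both fractions and just below 0 on the scale reported, were above 0. Without the added constant 9 probe sets were lower between ages, and with median centring 3560 were lower at 18 months, 50 higher and 8 lower between ages and 9 X-linked genes lower. A 1.5-fold threshold gave 3794, 4705, 454 and 131, with 14 X-linked genes lower; no fold threshold gave 12903, 11093, 1690 and 2101, with 23. A level of 1 above the floor in both left 1526 lower probe sets, and a level of 2 above it 898 higher and 906 lower, with 18 and 0 X-linked genes. With 1 probe set per gene there were 1336 lower at 18 months and 1 between ages. The thresholds and level filters change how many probe sets can pass; for the other settings the cause was not tested. The pairing by title number was checked from the arrays' deviations: the correlation of a rat's PACH and ROU arrays was 0.007 to 0.343, and 3 of 6 rats matched their own number best. With no replicate block the counts were 2062, 2306, 84 and 2, and with a random block 2062, 2306, 95 and 2. Named genes that lost their call at 18 months under another scaling were Crem, Plk1, Morf4l2, Eng, Bcl2 and C1qa with median centring, and Sycp3 and Inha as deposited. C1qa lost its call without rat 2, 3 or 5, and Bcl2 and C1qa with a larger added constant and when only the arrays of 18 months were normalised. For the difference between ages Shcbp1 lost its call without rat 3, 5, 8, 9 or 10. Median centring moved the medians of 19 of 26 lists by more than their spread, taking the mean over the probe sets of a gene 10 (Sertoli markers -1.05 to -0.69, transcription regulators 0.25 to 0.13), and leaving out the added constant 6. Precision is limited by 6 arrays per group, and the differences of probe sets near the absent-sequence level by their low signal.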
